A study of Mus musculus with 18 samples.

Results

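Ageing was followed in quadriceps muscle of floxed control mice, by comparing 3 RNA-seq libraries from mice of 17 months with 3 libraries from mice of 2 months, across all 15224 genes with counts. All 6 mice were of the C57/Bl6 strain, are labelled as Pofut1flox/flox controls and carry no Cre recombinase in their labels. The product of Pofut1 attaches O-fucose to Notch receptors and other proteins, and the flox sites leave the gene in place unless Cre is present. The 6 libraries are part of 18, which also hold mice with Cre under the skeletal alpha actin promoter, on wild-type or floxed Pofut1, at both ages. The Cre mice with wild-type Pofut1, 3 at each age and of the same strain, share no library with the floxed mice and serve below as a second ageing comparison. The groups are called young and old, and a library is named by the number in its label. Values are read counts scaled to library size (CPM), given for young 32, 57 and 92 and then for old 5, 46 and 48.

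Skeletal muscle is made of long fibres, each wrapped in a basement membrane and bound to its neighbours by a collagen-rich connective tissue. Fibro-adipogenic cells make much of that connective tissue, and tendon cells make the matrix of the tendon. Matrix synthesis is high while a muscle still grows. At 2 months a mouse is still gaining muscle mass, driven in part by growth hormone and IGF1, so that the interval to 17 months covers the end of growth as well as later ageing, and these cannot be told apart with ages of 2 and 17 months alone. In whole muscle, fewer cells of a type and less RNA per cell cannot be told apart either.

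The 6 libraries held 24901936 to 29703247 counts, of which the giant sarcomere gene Ttn took 14.5 to 22%. Fast fibre genes summed to 171900 to 227500 CPM, led by Myh4, the myosin of the fastest fibres, as the tissue label implies. Spearman correlations were 0.978 to 0.985 within ages and 0.961 to 0.981 across them. Xist, the noncoding RNA that silences an X chromosome in females, stood at 285, 0.9 and 0.895 CPM in young muscle and at 300, 326 and 1.45 CPM in old muscle, so that 1 of 3 young and 2 of 3 old libraries were high in it and the ages differ in makeup by sex. The library young 92 stood apart by genes of brown fat, and young 32 by slow fibre genes among the young libraries, as given beside the genes concerned. The labels do not say how many muscles or litters the libraries came from, so the p values measure the spread between these libraries.

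With age, 1605 genes (10.5%) passed the test, 674 higher at 17 months (4.43%) and 931 lower (6.12%). Adjusted p values come from edgeR's quasi-likelihood test with Benjamini-Hochberg adjustment over all genes, and a gene with an adjusted p under 0.05 is called. The lower side held the larger changes: 377 called genes were lower by more than 2-fold and 168 higher by more than 2-fold, while the median over all genes was -0.01 on the log2 scale. Protein-coding genes were called in 11.5% of 12975 cases, 601 higher and 892 lower, and long noncoding RNAs in 5.37% of 1472, 49 higher and 30 lower. Of the called genes, 1563 had no overlap between the 3 old and the 3 young values, a pattern found in 33.5% of all genes tested. The count depended on single libraries: it was 663 without young 57, 883 without young 92, 809 without old 48 and 413 without old 46, and 372 genes kept their call whichever of the 6 was left out. In the authors' deposited table, 2270 genes had an adjusted p under 0.05 in this comparison, and these held 98.3% of the genes called here.

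**Figure D1:**
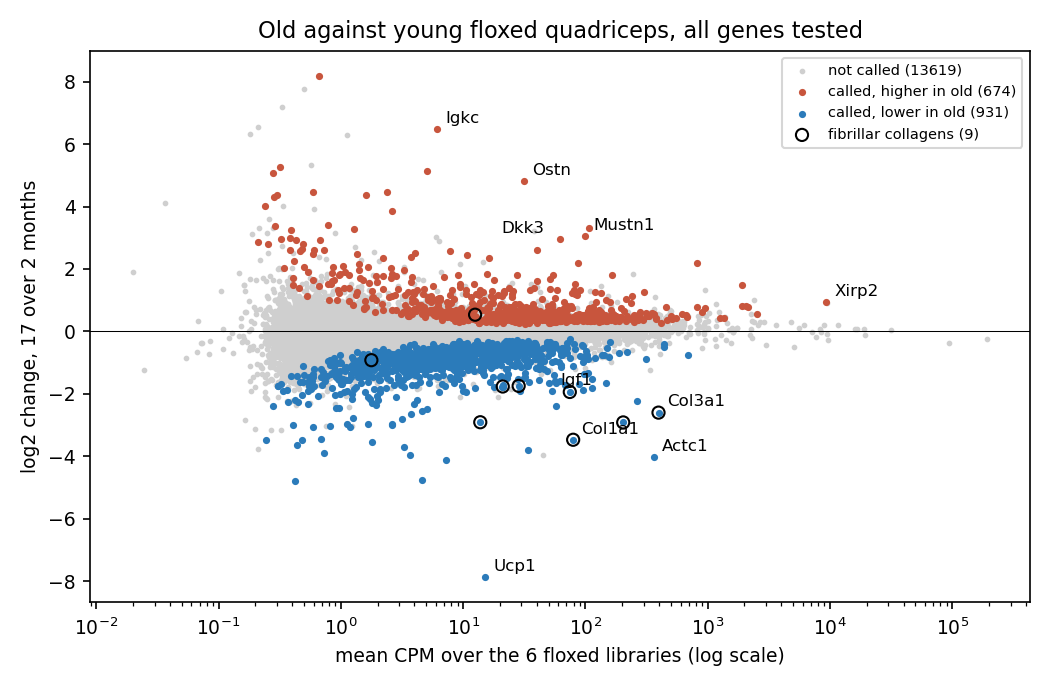
Log2 change between old and young floxed quadriceps (vertical axis) against mean CPM over the 6 libraries (horizontal axis, log scale) for all 15224 genes, with called genes coloured and the 9 fibrillar collagens circled. Of the collagens, 7 lie among the called genes below 0, while Ostn, Mustn1 and Dkk3 lie above 2 on the vertical axis.

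Genes that build the extracellular matrix fell together. Their lists were chosen with earlier results of these data known, so the shares below describe the lists and are no test of them. Over 4 lists (fibrillar collagens, other matrix proteins, collagen processing and basement membrane), 60 of 83 measured genes were called lower (72.3%, against 6.12% of all genes) and 0 higher. Their median log2 change was -1.15, 80 of 83 were negative, and 44 were lower by more than 2-fold. In 69 genes the highest old value lay below the lowest young one, which 17.4% of all genes tested showed. Without old 46 the number called lower was 33, and without the other libraries in turn it was 46 to 60. With Xist as a covariate it was 60.

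The fibrillar collagens are the rope-like proteins that give connective tissue its strength, and 7 of 9 measured were called lower. Col1a1, a chain of type I collagen (Entrez 12842; GRCm38 chromosome 11, 94936224 to 94953042), stood at 154.5, 150.8 and 131.6 CPM in young muscle and at 13.3, 11.1 and 15.1 CPM in old muscle. The groups were far apart, with an 11.1-fold lower mean at 17 months (log2 -3.47, SE 0.577, adjusted p = 0.00261). Its partner chain Col1a2 fell from 357, 410 and 312 CPM to 57.2, 28.6 and 57.4 CPM (log2 -2.91, SE 0.492, adjusted p = 0.00268). Col11a1, which seeds thin fibrils, fell from 25.73, 25.98 and 21.41 CPM to 4.13, 2.07 and 3.54 CPM (log2 -2.91, SE 0.36, adjusted p = 0.00118). These 3 genes and Col5a3 (log2 -1.76, adjusted p = 0.00165) kept their calls whichever of the 6 libraries was left out. Col3a1, the chain of type III collagen and the most abundant of the list, stood at 591, 852 and 598 CPM and at 114, 83.9 and 139 CPM. It was 6.06-fold lower in old muscle (adjusted p = 0.0166), but had an adjusted p of 0.0974 without old 46. The members that did not pass were Col27a1 (log2 -0.92, adjusted p = 0.0509) and Col24a1 (log2 0.54, adjusted p = 0.34).

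The stretch upstream of the start is shown for Col1a2 (chr6:4505368-4505617, plus strand), Col3a1 (chr1:45311288-45311537, plus strand) and Actc1 (chr2:114052876-114053125, minus strand), 3 of the most abundant genes that fell, as given by RefSeq for GRCm38.p6. Each is the 250 bases before the start, 5′ to 3′, with capitals marking CCAAT (the letters bound by NF-Y), TATAAA (the TATA box), TTTGAA or TTCGAA (cell cycle elements) on either strand, and the CArG box bound by serum response factor.
Col1a2: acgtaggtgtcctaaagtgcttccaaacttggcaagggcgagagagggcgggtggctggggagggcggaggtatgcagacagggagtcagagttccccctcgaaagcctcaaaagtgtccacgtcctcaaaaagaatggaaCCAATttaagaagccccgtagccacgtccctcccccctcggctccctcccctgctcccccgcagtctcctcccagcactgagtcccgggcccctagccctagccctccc
Col3a1: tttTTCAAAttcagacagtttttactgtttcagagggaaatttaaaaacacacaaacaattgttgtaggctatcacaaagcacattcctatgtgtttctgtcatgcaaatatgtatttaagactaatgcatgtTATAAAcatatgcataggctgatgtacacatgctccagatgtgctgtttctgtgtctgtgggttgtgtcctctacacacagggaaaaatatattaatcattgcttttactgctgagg
Actc1: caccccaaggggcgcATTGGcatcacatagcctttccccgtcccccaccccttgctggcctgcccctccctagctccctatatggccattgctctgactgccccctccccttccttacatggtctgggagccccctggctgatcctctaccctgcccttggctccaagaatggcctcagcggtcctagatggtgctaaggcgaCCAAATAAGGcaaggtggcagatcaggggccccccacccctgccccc
In Col1a2 the match is CCAAT on the same strand, 109 bases before the start. In Col3a1 they are TTTGAA on the opposite strand at 247 bases and TATAAA at 117 bases, and in Actc1 they are CCAAT on the opposite strand at 235 bases and a CArG box at 47 bases. Over windows from 250 bases before to 50 after the start, CCAAT on either strand was present in 44.4% of 45 promoters of 41 matrix genes called lower, against 37.4% of all 32851 promoters in the table. TATAAA was present in 13.3% against 13.6%, and TTTGAA in 8.89% against 17.9%. The CArG box was present in 2.22% against 1.63%. These are matches of letters, not sites of binding.

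Among the other matrix proteins, 26 of 35 were called lower, none higher and all 35 were negative. Sparc, a collagen-binding glycoprotein of growing tissue, fell from 405, 503 and 404 CPM to 88.6, 68.5 and 126 CPM (log2 -2.21, SE 0.376, adjusted p = 0.00275). Fbn2, the fibrillin of developing microfibrils, was low throughout but fell 10.8-fold, from 2.04, 1.12 and 0.62 CPM to 0.0389, 0.153 and 0.141 CPM (adjusted p = 0.00418). The chains of types XV, XII and VI collagen fell by similar amounts, with log2 changes of -1.78 for Col15a1, -1.66 for Col12a1 and -1.67 for Col6a1. All of these held without each library in turn. Dcn, the small proteoglycan decorin that coats fibrils, changed far less: it stood at 466, 558 and 479 CPM and at 343, 379 and 425 CPM (log2 -0.39, adjusted p = 0.0453), and had an adjusted p of up to 0.183 with 1 library left out. Aspn (log2 -0.11, adjusted p = 0.83), Ogn (log2 -0.25, adjusted p = 0.48) and Lum (log2 -0.37, adjusted p = 0.47), proteoglycans of the same family as Dcn, did not pass.

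Collagen processing genes cut, fold and cross-link collagen, and 16 of 25 were called lower. Loxl2, which cross-links collagen, fell from 16.2, 18.5 and 15.3 CPM to 4.63, 3.68 and 4.599 CPM (log2 -1.95, SE 0.286, adjusted p = 0.00149). The related Lox fell from 30.8, 35.5 and 34.5 CPM to 9.77, 10.4 and 15.3 CPM (2.84-fold, adjusted p = 0.00194), and Pcolce, an enhancer of procollagen cleavage, had a log2 change of -1.43 (adjusted p = 0.00149). In contrast P4hb, the shared subunit of prolyl hydroxylase that also folds other proteins, was at a log2 change of 0.01. In the basement membrane list 11 of 14 were called lower, among them Col4a1, a chain of the type IV collagen network, from 170, 201 and 151 CPM to 59.0, 35.7 and 56.0 CPM (log2 -1.79, SE 0.244, adjusted p = 0.00118). Lamb1, a laminin chain, and Nid1, which links laminin to type IV collagen, had log2 changes of -1.55 and -1.32. The exceptions were Lama5 (log2 0.07), Lamb2 (log2 -0.16), a chain of the synaptic laminins, and Agrn (log2 -0.17), the organiser of the nerve-muscle synapse.

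**Figure D2:**
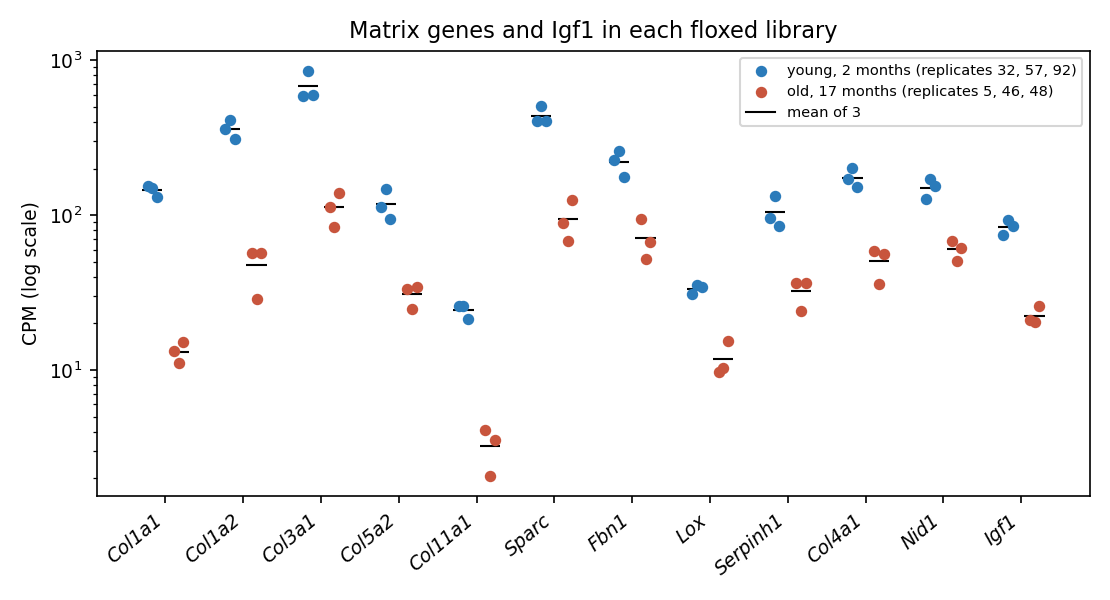
CPM (log scale) of 11 matrix genes and Igf1 in each floxed library, young in blue and old in red, with a line at each group mean of 3. The genes were picked by hand, and list members that did not fall, such as Col24a1 and Lama5, are left out. For every gene shown, the 3 old values lie below the 3 young values, as in 17.4% of all genes tested. The falls run from Col1a1 at an 11.1-fold lower mean to Nid1 at 2.5-fold.

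Markers of fibro-adipogenic and tendon cells were lower as well. Of 20 fibro-adipogenic genes 14 were called lower, where 6.12% of all genes were, and of the 15 that are in none of the matrix lists 10 were. Serpinf1, a secreted factor of these cells, fell from 70.3, 84.2 and 72.9 CPM to 28.4, 17.6 and 26.4 CPM (log2 -1.65, adjusted p = 0.00149). Pdgfra, the receptor that defines them, fell from 84.8, 107 and 95.8 CPM to 63.7, 43.4 and 53.4 CPM (log2 -0.84, SE 0.153, adjusted p = 0.00409). Its fold was 1.79, beside 11.1 for Col1a1. The fibro-adipogenic count was 6 to 9 without any 1 of young 32, 57, 92, old 46 and old 48, and 13 without old 5. With Xist as a covariate it was 9. Of 12 tendon genes 8 were called lower, read against the same 6.12%, including Tnmd, a membrane protein of tendon cells (log2 -1.91, adjusted p = 0.00194), and Kera, a cornea and tendon proteoglycan (log2 -1.61, adjusted p = 0.00157). Tendon genes summed to 410.5, 413.4 and 307.3 CPM in young muscle and to 199.1, 136.4 and 155.5 CPM in old muscle, and how much attached tendon each sample held was not tested.

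The list of immature fibre and regeneration genes had 4 of 23 called higher (Hspb7, Ankrd1, Csrp3 and Des) and 2 lower (Actc1 and Igf2bp2), with 12 positive, 11 negative and a median of 0.05, so that it moved neither way as a group. Without old 46 it had 2 higher and 1 lower. Over all genes 4.43% were called higher and 6.12% lower. Actc1, cardiac alpha actin (Entrez 11464; GRCm38 chromosome 2, 114047282 to 114052875), which fibres express while they form and then largely replace by Acta1, stood at 728, 610 and 704 CPM in young muscle and at 80.8, 27.6 and 17.6 CPM in old muscle. Its 16.2-fold fall (log2 -4.02, SE 0.616, adjusted p = 0.00163) held without each library. Acta1 did not pass, with means of 15580 ± 344 and 16480 ± 1315 CPM (SD, n = 3 each; log2 0.08, adjusted p = 0.723). Myh3 and Myh8, the embryonic and neonatal myosins, did not pass either, with log2 changes of 0.46 (adjusted p = 0.725) and -0.08 (adjusted p = 0.935). Igf1, a main growth factor of muscle, fell from 74.0, 92.5 and 84.9 CPM to 20.9, 20.3 and 26.1 CPM (log2 -1.90, SE 0.333, adjusted p = 0.00344). Of 19 genes of the growth hormone and IGF axis, 3 were called, all lower, beside 6.12% of all genes. They were Igf1 and the binding proteins Igfbp7 (log2 -1.21) and Igfbp6 (log2 -0.86), each called whichever library was left out.

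Imprinted growth genes are a network of genes that are high in the fetus and fall after birth. They were called lower in 4 of 15 cases, against 6.12% of all genes, with 14 of 15 negative and a median of -0.81. Ndn fell from 11.4, 9.75 and 9.57 CPM to 5.02, 3.52 and 6.65 CPM (log2 -1.01, adjusted p = 0.0117), and the others were Sgce, Mirg and Zim1. Without old 46 none of the list was called. H19, the noncoding RNA beside Igf2, was high in young 32 only, at 2338, 462 and 382 CPM against 826, 827 and 542 CPM, and did not pass (adjusted p = 0.605). The 28 cell division genes had a median of -0.91 with 24 negative, but their spread was wide: Racgap1, needed to split daughter cells, was the only one called lower (log2 -1.31, adjusted p = 0.0444), and Mki67 stood at 5.34, 13.9 and 9.02 CPM against 2.34, 4.44 and 2.90 CPM (adjusted p = 0.162). Tpx2, a spindle protein, was called higher, at 3.19, 7.16 and 4.23 CPM against 6.73, 12.8 and 22.7 CPM (adjusted p = 0.0218). Racgap1 and Tpx2 had adjusted p values of 0.19 and 0.119 without old 46 and old 48. Of 25 DNA replication genes, Rrm1 (log2 0.35) and Rfc4 (log2 0.54) were called higher and none lower. The median was -0.17 and 16 were negative. None of the list was called without young 92, where Rrm1 had an adjusted p of 0.0553. Rfc4 had an adjusted p of 0.143 without old 46. The counts of the cell division and DNA replication lists stand beside 4.43% of all genes called higher and 6.12% called lower.

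Further genes with large falls have roles in development and signalling. Bcat1, an enzyme that breaks down branched-chain amino acids, fell 14.9-fold, from 1.18, 1.87 and 1.03 CPM to 0.0779, 0.0766 and 0.106 CPM (adjusted p = 0.00452). Nrk, a kinase known from placenta and embryonic muscle, fell 7.87-fold, and Wisp1, a secreted matrix-associated protein, 7.74-fold, with adjusted p values of 0.00163 and 0.00439. Adam12, a membrane protease of regenerating muscle and mesenchymal cells, stood at 1.83, 2.34 and 9.71 CPM against 0.311, 0.689 and 0.708 CPM and lost its call without young 92 (adjusted p = 0.0825). Adam12 shares its position with another counted gene, as do Aspn, Chdh, Col15a1, Col4a1, Cryab, Des, Glb1, Hspb6, Igfbp7, Mb, Myh7, Ndufa2, Nrap, Ogn, Ostn, Phkg1, Rfc4, Xirp2 and Xist among the genes named here, and since the strand used for counting is unknown here, reads of such pairs may be mixed. Among lower genes of high level were Gsn, an actin-severing protein also made by fibro-adipogenic cells (log2 -0.77), Sptbn1, a spectrin (log2 -0.51), Gpt2, an alanine aminotransferase (log2 -0.90), and Mlf1 (log2 -0.65). Of these, Mlf1 was called without each library in turn, and the others had adjusted p values of up to 0.117 for Gsn without old 46, 0.126 for Sptbn1 without old 46 and 0.14 for Gpt2 without young 92.

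Some of the largest falls rested on 1 library. Ucp1, the heat-producing protein of brown fat, stood at 0.215, 2.27 and 88.6 CPM in young muscle and at 0.156, 0.0766 and 0.141 CPM in old muscle, so that its fitted log2 change of -7.87 (adjusted p = 0.0169) came from young 92, and without that library it was not called (adjusted p = 0.174). Brown fat genes, a list added after the data were seen, summed to 6.92, 9.57 and 151.5 CPM and to 7.47, 6.09 and 4.92 CPM. Of its 6 genes, 4 were called lower with all libraries (Ucp1, Cidea, Otop1 and Kcnk3) and 0 without young 92. The wider adipocyte list went from 4 called lower of 24 (median -0.89) to 1 lower and 1 higher without it (median 0.05). Cyp2e1 (7.53, 33.4 and 149 CPM against 4.91, 3.29 and 5.31 CPM), Ces1f and Chdh, enzymes found in liver and fat, had the same library highest and adjusted p values of 0.149, 0.296 and 0.221 without it. The fibrillar collagens summed to 1331, 1689 and 1231 CPM in the young libraries, so that young 92 was the lowest, and without it 53 of the 83 matrix genes were called lower.

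Genes that rose included secreted factors and proteins of the sarcomere edge. Ostn, the muscle-secreted peptide musclin (Entrez 239790; GRCm38 chromosome 16, 27307641 to 27351209), stood at 2.26, 2.16 and 2.00 CPM in young muscle and at 64.5, 102 and 14.5 CPM in old muscle. It was 28.2-fold higher at 17 months (log2 4.82, SE 0.688, adjusted p = 0.00149). Dkk3, a secreted protein of the Dickkopf family, rose from 5.80, 20.8 and 16.0 CPM to 102, 108 and 121 CPM (log2 2.95, SE 0.439, adjusted p = 0.00149). Mustn1, a small nuclear protein of muscle and bone, rose from 27.6, 19.1 and 17.7 CPM to 87.7, 202 and 241 CPM (log2 3.04, SE 0.383, adjusted p = 0.00118). Mss51, a muscle protein linked to mitochondrial metabolism, rose from 19.9, 17.1 and 21.8 CPM to 78.2, 252 and 250 CPM (log2 3.31, SE 0.662, adjusted p = 0.00647). In all 4 genes every old value lay above every young value, which the rule for naming them required and 16% of all genes tested showed. Their calls held whichever library was left out.

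Several of the named genes that rose encode proteins of the sarcomere or small heat shock proteins, picked here because they rose and not from a list of their own. Des, the intermediate filament desmin, rose from 1444, 1365 and 1346 CPM to 1982, 2476 and 2787 CPM (log2 0.80, SE 0.146, adjusted p = 0.00409). Nrap, an actin-binding scaffold of the myotendinous junction, rose from 1799, 1281 and 1350 CPM to 2560, 2711 and 2604 CPM (log2 0.83, adjusted p = 0.00642). Hspb7 rose from 43.9, 21.7 and 29.8 CPM to 110, 149 and 173 CPM (log2 2.18, SE 0.364, adjusted p = 0.00261), and Cryab, the small heat shock protein that binds desmin, rose from 152, 146 and 122 CPM to 221, 332 and 309 CPM (log2 1.04, adjusted p = 0.00689). These 4 calls held whichever library was left out. Xirp2, which binds actin at Z-discs, was the most abundant gene called higher, at 6470, 6674 and 6049 CPM against 8950, 14460 and 13160 CPM (adjusted p = 0.0326), while Ankrd1, a stretch-responsive titin partner, rose 6.06-fold (adjusted p = 0.0155). Without old 46 these reached adjusted p values of 0.133 and 0.0619. Elsewhere in the heat shock and unfolded protein list, Pdia4 and Pdia6, which fold secreted proteins, were lower with Hsph1 and Dnajb1, making 1 higher and 4 lower of 23. Over all genes 4.43% were called higher and 6.12% lower.

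Eda2r, the ectodysplasin A2 receptor that p53 induces, stood at 20.5, 20.5 and 18.9 CPM and at 39.1, 69.2 and 74.6 CPM (log2 1.61, SE 0.27, adjusted p = 0.00262). It was the only one of 19 senescence and p53 genes called higher. Glb1 was called lower (adjusted p = 0.0167, and 0.0992 without old 46). Cdkn1a, the cell cycle inhibitor p21, stood at 1.07, 0.252 and 0.482 CPM and at 0.623, 0.613 and 0.283 CPM (adjusted p = 0.822). Fbxo32, the ubiquitin ligase atrogin-1 that marks muscle wasting, rose from 163, 222 and 148 CPM to 397, 392 and 477 CPM (log2 1.25, SE 0.255, adjusted p = 0.00726). It was the only one of 23 denervation and receptor genes to be called. In the list of proteolysis and autophagy, 2 of 23 were called higher, Fbxo32 and the proteasome subunit Psmd11 (log2 0.47, adjusted p = 0.0115). Fbxo32 kept its call whichever library was left out, and Psmd11 had an adjusted p of 0.0773 without old 46. The numbers higher in these lists stand beside 4.43% of all genes.

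The TGF-beta and myostatin list holds brakes on muscle growth and drivers of matrix synthesis. Of its 28 genes, 2 were called higher and 4 lower, where 4.43% and 6.12% of all genes were. Tgfb3, a ligand, rose from 45.0, 36.4 and 34.2 CPM to 49.9, 54.5 and 57.8 CPM (log2 0.49, adjusted p = 0.014), and Gdf11, a relative of myostatin, from 5.05, 5.87 and 5.54 CPM to 12.2, 8.77 and 13.2 CPM (log2 1.05, adjusted p = 0.0158). Fstl1, a secreted glycoprotein of mesenchymal cells, fell from 153, 163 and 118 CPM to 62.2, 48.1 and 58.3 CPM (log2 -1.36, adjusted p = 0.00766), with Ltbp1, which stores TGF-beta in the matrix, at a log2 change of -0.99. Left-out libraries ended these calls: Tgfb3 had an adjusted p of 0.0673 without young 57, Gdf11 0.0665 without old 48, Fstl1 0.0532 and Ltbp1 0.063 without old 46. Of 19 immediate early genes, Jun was higher (log2 0.62, adjusted p = 0.00847) and Klf4 (log2 -0.86, adjusted p = 0.00809) and Ier2 lower, and of 19 clock genes only Cry2 was called, at a log2 change of 0.57 (adjusted p = 0.0401, and 0.137 without young 32). Further genes that rose and were of high level or large fold were Mybpc1, the slow form of myosin binding protein C (log2 0.79), Golga4, a golgin (log2 0.42), Folh1 (log2 2.62) and Efhc2 (log2 2.61). Among these 4, Efhc2 alone was called whichever library was left out.

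**Figure D3:**
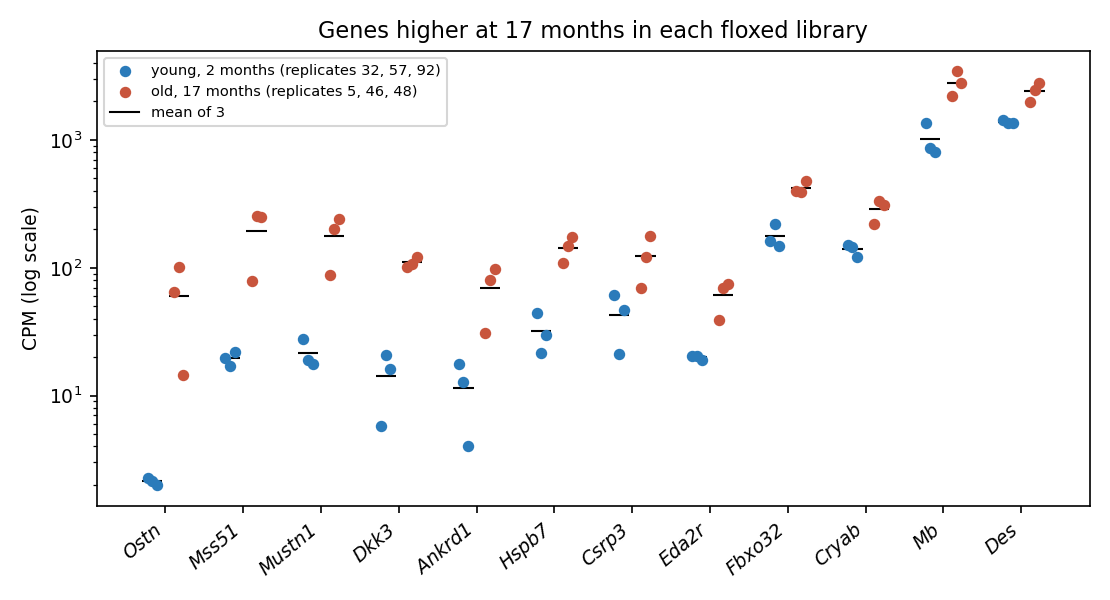
CPM (log scale) of 12 genes called higher at 17 months in each floxed library, young in blue and old in red, with a line at each group mean of 3. The old values lie above the young values in every gene, as in 16% of all genes tested, and the naming rule required this of some. The spread is wide for Ostn (14.5 to 102 CPM) and narrow for Dkk3 (102 to 121 CPM).

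Immunoglobulin genes rose from near 0. Igkc, the constant part of the kappa light chain, stood at 0.0358, 0.18 and 0.172 CPM in young muscle and at 0.662, 30.2 and 5.27 CPM in old muscle (adjusted p = 0.0237). Ighg2c stood at 0.287, 0.252 and 0.275 CPM and at 0.740, 14.5 and 14.1 CPM (adjusted p = 0.0175), and Igj, the chain that joins antibody units, rose from 0.323, 0.324 and 0.344 CPM to 0.778, 10.9 and 3.01 CPM (adjusted p = 0.0336). Ighv1-53 had 0 counts in each young library and 0.818, 2.57 and 0.601 CPM in old muscle (adjusted p = 0.0453). Its old mean was at least 12.3-fold higher than the 0.108 CPM that 3 counts in a young library would give. Every old value lay above every young one, as the rule for naming these genes required, but the spread was large. Without old 46 the adjusted p values of Igkc, Igj and Ighv1-53 were 0.146, 0.211 and 0.161, and Ighg2c had 0.0719 without young 57. Of the 6 fits without 1 library, Igkc kept its call in 2, and Ighg2c, Igj and Ighv1-53 in 1 each. Immunoglobulin segments are near-identical copies, so reads may be split among them. Of the 6 B and plasma cell genes measured, 2 were called higher, where 4.43% of all genes were. None was called without young 32, young 57, young 92 or old 46. Ms4a1, the B cell marker CD20, stood at 0.107, 0.108 and 0 CPM and at 0.273, 1.72 and 1.42 CPM (adjusted p = 0.0589). The 6 genes together summed to 27.41, 33.65 and 26.84 CPM in young muscle and to 8.80, 72.2 and 83.95 CPM in old muscle. By this sum old 5 lay below every young library, and not every member was near 0 in young muscle.

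Of 28 interferon response genes 10 were called lower, against 6.12% of all genes, with 27 negative and a median of -0.69. Irf9, a subunit of the interferon-activated transcription factor, fell from 8.78, 10.2 and 10.1 CPM to 4.98, 5.29 and 4.53 CPM (log2 -0.98, SE 0.178, adjusted p = 0.00409). Ifi44, an interferon-induced protein, fell from 2.51, 1.37 and 2.13 CPM to 0.273, 0.498 and 0.566 CPM (log2 -2.15, adjusted p = 0.00452), and Ddx58, the RNA sensor RIG-I, had a log2 change of -0.91. These 3 held without each library, and the list's count was 3 without young 57, 4 without old 46, 5 without old 48 and 7 or 8 without each other library. Of 17 complement genes 4 were called lower, beside the same 6.12%, among them C1ra (log2 -0.97) and Serping1 (log2 -0.76). No complement gene was called without old 46 or without young 57. Of 23 macrophage genes only Lyve1, a marker of perivascular macrophages and lymphatic vessels, was called (log2 -1.08, adjusted p = 0.0112), a share below the 6.12% of all genes, with 20 negative. Lyve1 had an adjusted p of 0.062 without old 46.

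Satellite cells are the stem cells of muscle, and the Notch pathway keeps them quiescent. Pax7, which defines satellite cells, stood at 1.505, 1.26 and 1.17 CPM and at 0.428, 0.651 and 0.920 CPM; the groups did not overlap, as in 17.4% of all genes on the lower side, and the log2 change of -0.96 did not pass (adjusted p = 0.104). Of 17 satellite cell genes 5 were called lower, beside 6.12% of all genes, led by Chodl (log2 -1.12, adjusted p = 0.0111), and without old 46 none was. In the Notch list 3 of 25 were called lower, beside the same 6.12%: the receptor Notch2 (log2 -0.64), the ligand Dll1 (log2 -0.84) and the target Hey1 (log2 -1.04), and the number ran from 0 without old 46, old 48 or young 57 to 8 without old 5. Pofut1 itself stood at 19.6, 17.8 and 17.0 CPM and at 12.7, 14.8 and 13.5 CPM, also without overlap, and did not pass (log2 -0.41, SE 0.153, adjusted p = 0.094). Pmp22, a myelin protein, had the smallest p of the 14 Schwann and nerve genes, of which 3 were lower, and fell from 27.9, 23.3 and 21.2 CPM to 13.8, 11.1 and 12.6 CPM (log2 -0.95, SE 0.119, adjusted p = 0.00118). Endothelial genes were negative in 19 of 19, with Tek and Esam called. Smooth muscle genes were called lower in 4 of 16, among them Myl9 (log2 -0.93) and Acta2 (log2 -0.66), and higher in 2. The numbers lower in the Schwann and nerve, endothelial and smooth muscle lists stand beside 6.12% of all genes. Without old 46 the number lower was 0 of the endothelial, 1 of the smooth muscle and 1 of the Schwann and nerve genes.

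Slow fibre genes varied widely between libraries of the same age. Myh7, the slow myosin, stood at 556, 141 and 6.33 CPM in young muscle and at 934, 440 and 129 CPM in old muscle, and did not pass (adjusted p = 0.667). All 14 slow fibre genes were positive, with a median of 1.11, but the list summed to 3105, 1409 and 1039 CPM in young libraries and 4681, 5467 and 3619 CPM in old ones, so that young 32 approached the lowest old library. The called members were Mb, the oxygen store myoglobin, from 1352, 872 and 807 CPM to 2209, 3436 and 2797 CPM (adjusted p = 0.02), and Csrp3, a Z-disc sensor (adjusted p = 0.0412). Neither was called without old 46, young 57 or young 92. None of the 16 fast fibre genes was called in edgeR: Myh1, the myosin of fibre type IIX, was nearest, at 8361, 6626 and 4938 CPM against 15180, 9541 and 12390 CPM (log2 0.90, adjusted p = 0.0527). By DESeq2 1 of the 16 was called, and 3 had an unadjusted p under 0.05. Nuclear genes of oxidative phosphorylation were positive in 45 of 47 with a median of 0.23. Of the 47, 2 were called higher, Ndufa2 and Ndufb3, a share near the 4.43% of all genes. None was called without young 57, young 92, old 46 or old 48. In 23 glycolysis and glycogen genes edgeR called 0 and DESeq2 2, with 6 at an unadjusted p under 0.05. The 20 genes of fatty acid use, 11 of polyamine metabolism, 7 of antigen presentation, 6 of neutrophils and mast cells, 9 of red blood cells, 3 of skin and 10 on the sex chromosomes had 0 calls by either tool, and at most 1 per list had an unadjusted p under 0.05. Of 5 T and NK cell genes only Thy1, which fibroblasts and neurons also make, was called (log2 -1.19). The part of fibre types or fat in the changes of other genes was not tested.

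**Figure D4:**
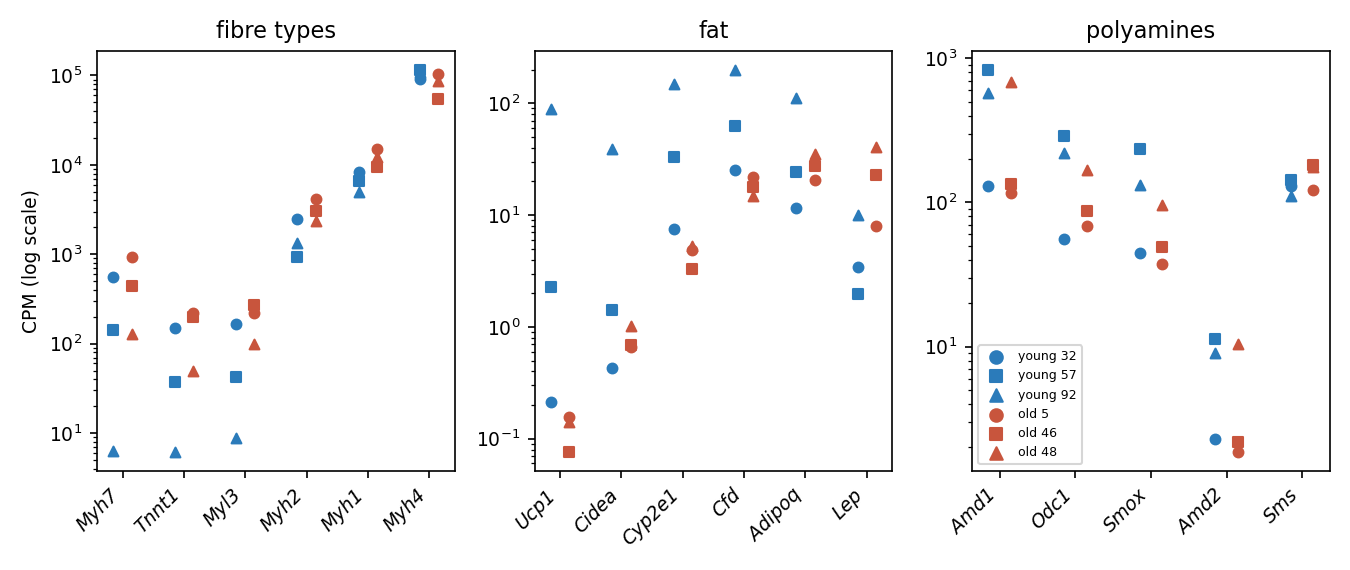
CPM (log scale) of fibre type, fat and polyamine genes in each floxed library, young in blue and old in red with a symbol for each library. Myh7 runs from 6.33 to 556 CPM among young libraries, Ucp1 reaches 88.6 CPM in young 92 alone, and Amd1 is high in young 57, young 92 and old 48, the libraries low in Xist.

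The Cre mice with wild-type Pofut1 gave a second ageing comparison from separate libraries. There, 274 genes were called (1.8%), 122 higher (0.801%) and 152 lower (0.998%), and 209 of these were called in floxed muscle in the same direction, which is 76.3% of the Cre calls and 13% of the floxed calls. No gene was called in opposite directions. Of the floxed calls, 95.3% had the same sign in Cre muscle, against 68% of all genes. The sizes differed: genes called lower in floxed muscle had a median of -0.91 there and -0.46 in Cre muscle, and genes called higher had 0.57 and 0.29. Since the genes were called on the floxed values, a smaller median in the other libraries does not by itself show a weaker change. The interaction of age and control genotype had no call in edgeR at an adjusted p under 0.05, and 906 genes had an unadjusted p under 0.05 (5.95%). DESeq2 called 1 gene, Hspb6, a small heat shock protein named after its value was seen. It stood at 80.4, 69.1 and 62.0 CPM and at 145, 208 and 158 CPM in floxed muscle, with a log2 change of 1.27 there and 0.12 in Cre muscle (interaction adjusted p = 0.764 in edgeR and 0.024 in DESeq2).

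The matrix genes changed in both control genotypes. In Cre muscle 75 of 83 were negative with a median of -0.86, and 24 were called lower, where 0.998% of all genes were. Of the 83, 4 had an unadjusted interaction p under 0.05, beside 5.95% of all genes. Col1a1 had a log2 change of -3.77 there (adjusted p = 0.00782), Col11a1 -2.96 (adjusted p = 0.00358), Lox -1.62 (adjusted p = 0.00636), Igf1 -2.12 (adjusted p = 0.00866) and Actc1 -3.38 (adjusted p = 0.0133). Among genes that rose, Ostn (log2 4.22, adjusted p = 0.00866) and Dkk3 (log2 3.03, adjusted p = 0.00636) were called in Cre muscle too. Other genes that rose had smaller values there: Eda2r had a log2 change of 0.25 in Cre muscle, Mustn1 1.30, Hspb7 0.70 and Cryab 0.17. The tests of those differences gave unadjusted p values of 0.00228, 0.00344, 0.00899 and 0.00992 and an adjusted p of 0.764 each, so none passed. Slow fibre genes had a median of -0.39 in Cre muscle, oxidative phosphorylation genes -0.11 and interferon genes -0.14, against 1.11, 0.23 and -0.69 in floxed muscle. Of the 14 slow fibre genes 1 had an unadjusted interaction p under 0.05, and of 28 interferon genes 5. Of the 47 oxidative phosphorylation genes, 9 (19.1%) had an unadjusted interaction p under 0.05, against 5.95% of all genes, and none passed after adjustment.

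**Figure D5:**
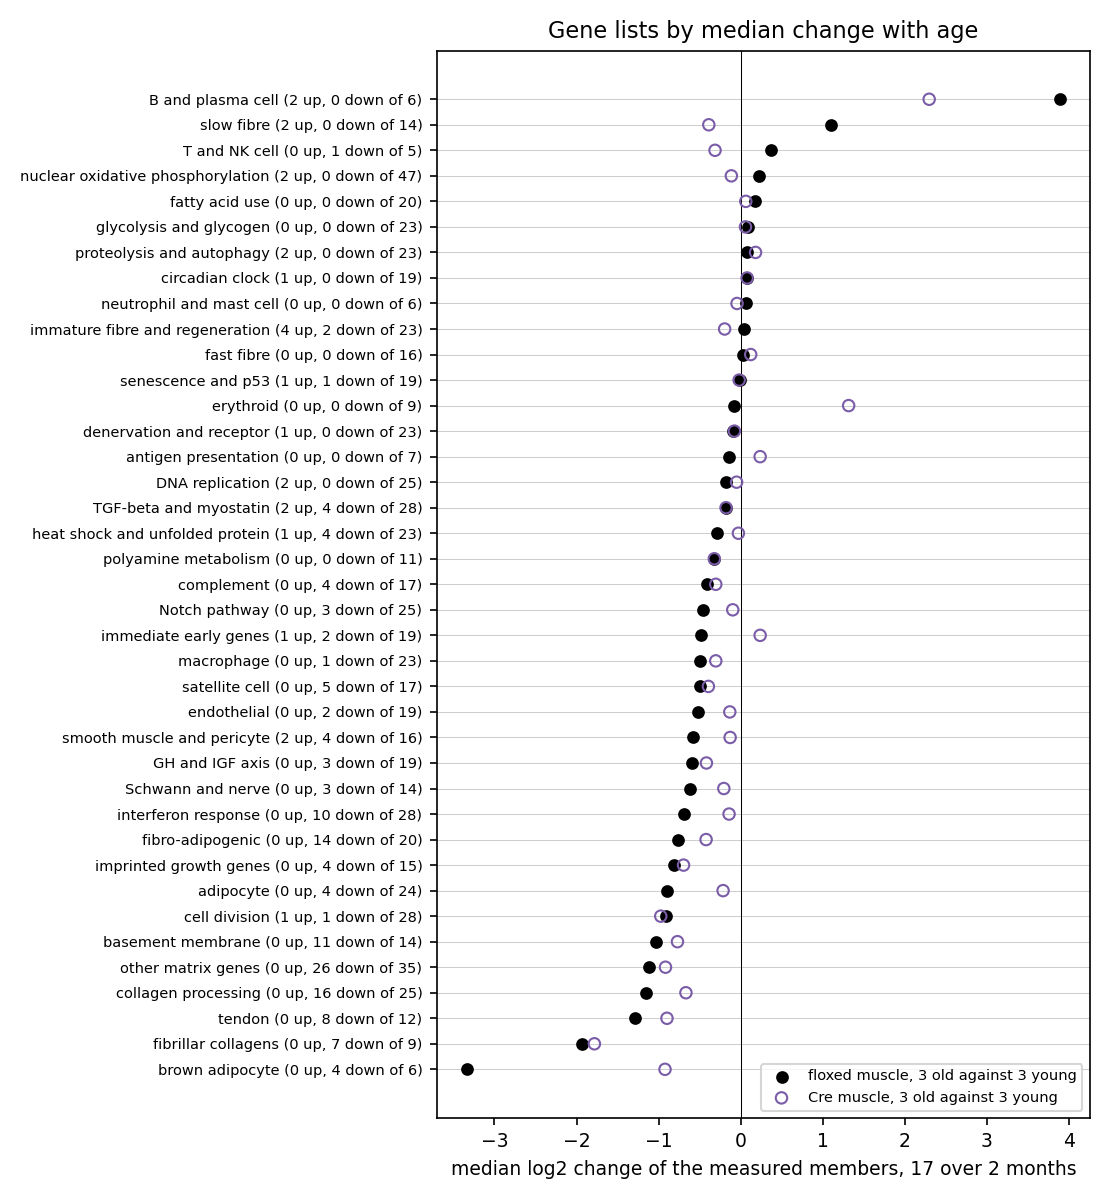
Median log2 change with age of the measured members of each gene list (horizontal axis), for floxed muscle in filled circles and Cre muscle in open circles, 3 old against 3 young libraries each, with the number called higher and lower in floxed muscle beside each name. Matrix and tendon lists lie to the left of 0 in both genotypes, and slow fibre genes have a median of 1.11 in floxed and -0.39 in Cre muscle, a difference that no member passed the test for; the brown adipocyte median rests on young 92.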

How the data were processed

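Total RNA from quadriceps was depleted of ribosomal RNA and made into ScriptSeq v2 libraries, per the labels' protocols. The submitters' processing notes name STAR, HTSeq and DESeq2, and the builds GRCm38.p4 and GRCh38.p5. Their versions, the counting strand and the use of each build are unknown here, so genes that overlap another cannot be separated with certainty. The values deposited by the authors are raw read counts per gene for 15224 genes, none with a total under 67, and 18 columns of normalized values and 6 of group means were not used. The log2 fold changes and adjusted p-values deposited by the authors were used only as a comparison, and 38 genes have no adjusted p there.

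Counts were tested in R 4.3.3 with edgeR 4.0.16 (limma 3.58.1): trimmed-mean scaling, filterByExpr with a minimum count of 10 (0 genes removed), and the quasi-likelihood F-test with 1 mean for each of 6 groups over all 18 libraries (12 residual degrees of freedom, biological coefficient of variation 20.1%). Groups came from the labels. The contrasts were old against young in floxed and in Cre muscle and their interaction. The scripts were tested on simulated data. Standard errors (SE) are the size of the log2 change divided by the square root of its F statistic, so they restate the test. Folds are powers of 2 of the fitted log2 change. Alternatives were DESeq2 1.42.0, RLE factors, only the groups compared, no filter, a mean of at least 1 CPM, Xist as a covariate and each library left out.

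Genes were named by a rule: called, without overlap between groups, at least 1 CPM in the higher group and no clone or model symbol, taking the 12 largest folds and the 8 highest levels in each direction, up to 4 members with the smallest p in each of 40 lists, and 11 genes whatever their values. Some genes that met the rule are not reported here. Further list members that did not pass, and Hspb6, Myh3, Myh8, Cdkn1a, H19 and the genes of the brown fat list, were named after their values were seen. The members and lists were chosen with earlier results of these data known, and lists are described by counts and medians with no set test. Promoter sequences are RefSeq's for GRCm38.p6; Col1a1, Ostn and Dkk3 have no entry. The CArG box was added to the motifs after the data were seen.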

Additional observations from a re-analysis of the deposited data

Results flagged for a closer look

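Phkg1, the catalytic subunit of muscle phosphorylase kinase, was picked because its values differed with age in opposite directions in the 2 control genotypes, without overlap. In floxed muscle alone 33.5% of all genes had no overlap, and the share with opposite directions was not counted. Phkg1 was at 429, 436 and 443 CPM in young floxed libraries and at 378, 354 and 366 CPM in old ones (log2 -0.25, edgeR adjusted p = 0.103). In Cre muscle every old library lay above every young one (log2 0.16, adjusted p = 0.438). Neither change passed. The test of the difference gave an interaction log2 of -0.41 with an unadjusted p of 0.00857 in edgeR and an adjusted p of 0.764, which does not pass. Its position overlaps that of Sumf2, another counted gene, and the counting strand is unknown here.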

How the results depend on the processing

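The count of 1605 genes in floxed muscle was 2276 with DESeq2, 1704 with RLE factors, 1147 with only the 6 floxed libraries, 1684 with a floor of 1 CPM on the mean and 1520 with Xist as a covariate, and the last kept 1357 of the main calls. With 1 library left out it ran from 413 to 2267. In Cre muscle the count of 274 was 667 with DESeq2 and 107 with only the Cre libraries, and 41 to 166 with 1 library left out. The interaction count of 0 was 1 with DESeq2 and 0 with each library left out. With Xist as a covariate, genes called lower fell from 14 to 9 (fibro-adipogenic), 5 to 3 (satellite cell) and 3 to 1 (Notch). They fell from 4 to 2 in the heat shock, complement and smooth muscle lists. They rose from 8 to 9 (tendon), 7 to 8 (fibrillar collagens), 3 to 4 (Schwann and nerve) and 4 to 5 (imprinted growth, TGF-beta). In that fit Dcn, Racgap1, Notch2, Dll1, Hsph1 and Golga4 had adjusted p values of 0.0565, 0.0656, 0.0632, 0.051, 0.0572 and 0.0694. None of the called genes named here changed sign under any alternative run, while 8 of the 189 named did, none of them called. Of 41 list medians 10 changed sign under at least 1 alternative, among them the adipocyte median from -0.89 to 0.05 without young 92 and the erythroid median from -0.08 to 0.94 without young 57. The causes of these shifts were not tested. No paired analysis was possible because the replicate numbers differ between the groups. Counting error limits genes near 1 CPM and below, where a library holds about as few as 3 counts at 0.108 CPM.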

Other observations

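In 4 of the 11 polyamine genes measured (Amd1, Amd2, Odc1 and Smox), every library low in Xist lay above every library high in it, a pattern noticed in these data and not tested. The share of all genes with this pattern was not counted, so whether 4 of 11 is unusual is unknown here. The other 7 polyamine genes did not show the pattern: Sms, the spermine synthase, stood at 130, 144 and 110 CPM and at 122, 181 and 175 CPM. Amd1, the decarboxylase that supplies polyamine synthesis, stood at 130, 831 and 572 CPM in young 32, 57 and 92 and at 116, 134 and 679 CPM in old 5, 46 and 48 (log2 -0.72, edgeR adjusted p = 0.618). Odc1, which makes putrescine, stood at 56.1, 290 and 222 CPM and at 68.8, 86.5 and 168 CPM, and Smox, which oxidises spermine, at 44.7, 236 and 132 CPM and at 37.1, 49.4 and 96.7 CPM. The libraries low in Xist were young 57, young 92 and old 48. Lep, the fat hormone leptin, was higher in old muscle, at 3.40, 1.98 and 9.95 CPM against 8.02, 22.98 and 40.7 CPM, with groups that overlap and an adjusted p of 0.0534 in edgeR.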
